A study of Rattus norvegicus with 20 samples.

Results

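Fos, Jun, Junb, Egr1 and Atf3 are immediate early and AP-1 genes, and their transcript levels were followed in rat bone marrow mesenchymal stromal cells (MSCs) across 8 culture histories on soft and stiff silicone. The 5 genes were taken by a list of Ensembl identifiers, without use of their measured values. Rows were found for 4 of the 5 among 30560 genes of the count table: Fos (ENSRNOG00000008015), Jun (ENSRNOG00000026293), Egr1 (ENSRNOG00000019422) and Atf3 (ENSRNOG00000003745). Junb was not analysed here. All 4 passed the filter on low counts, which left 14034 genes for testing. The symbols came with the list of identifiers, and no annotation used here pairs the 2.

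MSCs from female Wistar rats, with 1 rat giving 1 batch of cells, were selected with magnetic beads for CD54 and CD90 and grown on gelatin-coated silicone of 2 kPa (soft) or 100 kPa (stiff), with a passage each week. The groups 1w2, 3w2 and 5w2 spent 1, 3 and 5 weeks on 2 kPa, and the groups 1w100, 3w100 and 5w100 spent the same times on 100 kPa. In 3w2→2w100, cells primed for 3 weeks on 2 kPa were moved to 100 kPa for 2 weeks, and in 3w100→2w2 the move was made in the opposite direction. Polyadenylated RNA was sequenced in 20 libraries, 3 for each 1-week and 3-week group and 2 for each of the 4 groups that ended at 5 weeks. All groups share the same isolation and coating. The study calls these libraries biological replicates, and the labels do not say which rat a replicate number stands for. Markers of MSCs and of other cell types could not be looked up by symbol, and the labelled cell type was not checked here.

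Immediate early genes are transcribed within minutes of a stimulus such as serum, growth factors, stretch or the handling of cells, from factors already present in the cell. Fos and Jun proteins pair through leucine zippers to form AP-1, a DNA-binding dimer that drives many genes of growth, matrix turnover and inflammation, and AP-1 is linked to fibroblast activation. Egr1 is a zinc finger factor induced downstream of serum response factor and of MAP kinase signalling, and it is known in fibroblasts for its link to collagen expression. Atf3 is a leucine zipper protein of the ATF family that responds to many stresses, can pair with Jun and often represses its targets.

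The RefSeq promoter table (build GRCr8) held Egr1 and Junb of the 5 genes. In the 250 bases before the Egr1 start, a CArG box, the element bound by serum response factor, was found 2 times, at bases -105 to -96 and -83 to -74 counted from the start. At least 1 CArG box on either strand was present in 1.5% of 33469 promoter windows of that length, and at least 2 in 0.021%. The sequence TGACG, which is part of a cyclic AMP response element, was found on either strand 2 times in the Egr1 window. At least 1 such match was present in 18.2% of all windows, and at least 2 in 3.98%. The AP-1 motif TGANTCA was found 0 times in the Egr1 window and in 6.34% of all windows. These matches describe letters in the window and not binding.

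Levels are given as CPM, counts scaled to a common library size, with each library scaled by its total and by a composition factor, the trimmed mean of M-values (TMM). Library totals ran from 16127907 to 24139128 counts, and the 4 genes had 16 to 1766 counts per library, so the low CPM of Fos and Atf3 still rest on whole counts of 16 or more. CPM are not divided by transcript length, and levels are therefore compared between groups and not between genes. A fold change is a log2 difference of group levels from edgeR, given with its standard error (SE). An adjusted p is from the edgeR quasi-likelihood test with Benjamini-Hochberg adjustment over all genes tested, and a gene is called where it is below 0.05. The measured quantity is RNA from whole cultures, in which fewer cells that express a gene and less RNA per cell cannot be told apart.

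Levels of Fos and Atf3 varied among the 8 groups, while Jun and Egr1 did not pass the same test. The adjusted p of any difference among groups was 0.00399 for Atf3, 0.0113 for Fos, 0.221 for Egr1 and 0.269 for Jun. Of all genes tested, 21% were called. A 1-week group had the highest mean for each of the 4 genes, 1w2 for Fos, Jun and Egr1 and 1w100 for Atf3, and 5w100 had the lowest mean for each. Between the highest and lowest group means the fold was 5.31 for Fos, 4.47 for Atf3, 1.86 for Egr1 and 1.55 for Jun.

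**Figure D1:**
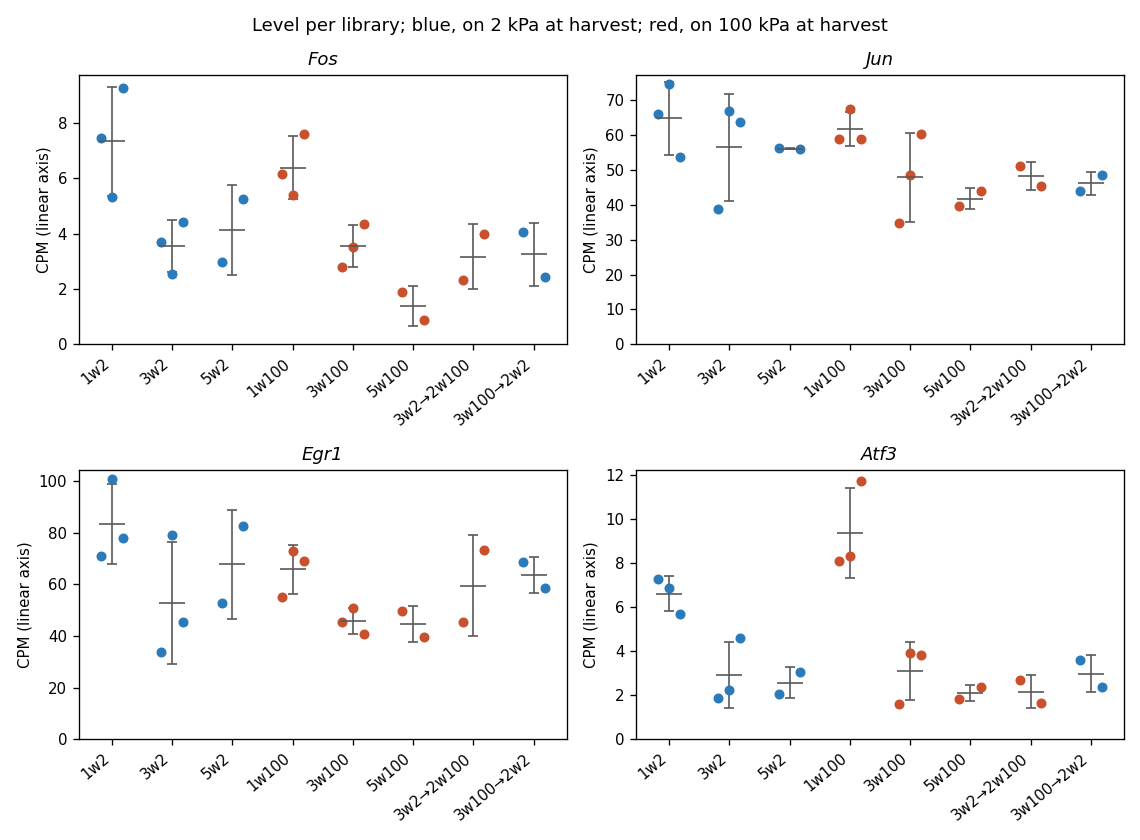
CPM of each gene (y axis, linear from 0) in each library of the 8 groups (x axis), with a horizontal bar for the group mean and whiskers of 1 SD. Fos and Atf3 sit highest in the 1-week groups, and the 2 libraries of 5w100, at 1.89 and 0.88 CPM, are the lowest for Fos.

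Fos, the AP-1 subunit that cannot pair with itself, had CPM of 7.45, 5.32 and 9.25 in the 3 libraries of 1w2, and of 6.16, 5.39 and 7.61 in 1w100. At 3 weeks it had 3.70, 2.56 and 4.42 CPM in 3w2, and 2.81, 3.52 and 4.35 in 3w100. All 6 libraries of 3 weeks lay below all 6 of 1 week. At 5 weeks Fos had 2.98 and 5.27 CPM in 5w2, and 1.89 and 0.88 CPM in 5w100. It had 2.34 and 3.99 CPM in 3w2→2w100, and 4.06 and 2.45 CPM in 3w100→2w2. Both 5w100 libraries were lower than every other library of the study, and the other 5-week groups overlapped each other. In the order 1w2, 1w100, 5w2, 3w100, 3w2, 3w100→2w2, 3w2→2w100 and 5w100, neighbours did not overlap at 2 of 7 steps, from 1w100 to 5w2 and from 3w2→2w100 to 5w100, and no neighbours had an adjusted p below 0.05.

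Atf3 had CPM of 7.25, 6.86 and 5.70 in 1w2, and of 8.07, 8.29 and 11.7 in 1w100. It had 1.85, 2.24 and 4.61 CPM in 3w2, and 1.59, 3.93 and 3.82 in 3w100. Every 1-week library was above every later one. At 5 weeks its CPM were 2.07 and 3.07 in 5w2, and 1.83 and 2.35 in 5w100. In the moved cells they were 2.69 and 1.63 in 3w2→2w100, and 3.57 and 2.39 in 3w100→2w2. These levels overlapped those of 3 weeks in each group. Neighbours in the order 1w100, 1w2, 3w100, 3w100→2w2, 3w2, 5w2, 3w2→2w100 and 5w100 did not overlap at the first 2 of 7 steps, and no step had an adjusted p below 0.05.

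Jun, the AP-1 subunit that pairs with Fos or with itself, had CPM of 65.8, 74.5 and 53.7 in 1w2, and of 58.9, 67.3 and 58.7 in 1w100. Its CPM were 38.8, 66.8 and 63.7 in 3w2, and 34.7, 48.5 and 60.2 in 3w100. The lowest library of each 3-week group, replicate 1, lay below the others, and the 1-week and 3-week groups overlapped on both surfaces. At 5 weeks Jun had 56.2 and 55.9 CPM in 5w2, and 39.6 and 43.8 in 5w100. It had 51.0 and 45.4 CPM in 3w2→2w100, and 43.8 and 48.4 in 3w100→2w2. The 5w2 libraries were above those of the other 3 groups that ended at 5 weeks, and the lowest group, 5w100, lay just below 3w100→2w2 without overlap, though the nearest libraries of both were at 43.8 CPM. In the order of means, 1w2, 1w100, 3w2, 5w2, 3w2→2w100, 3w100, 3w100→2w2 and 5w100, neighbours did not overlap at 2 of 7 steps, from 5w2 to 3w2→2w100 and from 3w100→2w2 to 5w100.

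Egr1 had CPM of 71.2, 101 and 77.9 in 1w2, and of 55.3, 73.2 and 68.9 in 1w100. At 3 weeks its CPM were 33.7, 79.1 and 45.6 in 3w2, and 45.5, 51.0 and 40.8 in 3w100. The level of 79.1 CPM, in 3w2 replicate 2, lay within the range of 1w2, and the other 3-week libraries were below both 1-week groups. At 5 weeks Egr1 had 52.8 and 82.8 CPM in 5w2, and 49.7 and 39.8 in 5w100. It had 45.6 and 73.3 CPM in 3w2→2w100, and 68.6 and 58.7 in 3w100→2w2. Replicate 2 was the highest library in 6 of 8 groups, the exceptions being 5w100 and 3w100→2w2. In the order of means, 1w2, 5w2, 1w100, 3w100→2w2, 3w2→2w100, 3w2, 3w100 and 5w100, neighbours overlapped at every step.

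Replicates of one group differed more for these genes than for most. The within-group SD on the log2 scale was 0.48 for Atf3, 0.44 for Fos, 0.36 for Egr1 and 0.27 for Jun, against a median of 0.23 over all genes tested. These lay at the 76.9, 74.3, 68.1 and 57.6 percentiles of all genes. Low counts widen this SD, and relative to the trend of dispersion with level Egr1 stood highest, with a biological coefficient of variation 1.37 times the trend, at the 86.7 percentile.

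The first comparison concerned the length of culture on one surface, in which time and passage number change together. Between 1 and 3 weeks on 100 kPa, Atf3 fell, with a log2 fold change of -1.59 (SE 0.38) and an adjusted p of 0.0160, which is a level 3.02-fold lower in 3w100 than in 1w100. It was 1 of 4 genes called, where 4.56% of all genes were called as lower. The call was lost without 1w100 replicate 3 (adjusted p = 0.0543) or without 3w100 replicate 1 (adjusted p = 0.0609). The log2 fold changes of the others were -0.84 for Fos (SE 0.34, adjusted p = 0.152), -0.52 for Egr1 (SE 0.27, adjusted p = 0.274) and -0.37 for Jun (SE 0.20, adjusted p = 0.298). Fos, Egr1 and Atf3 had lower libraries in 3w100 with no overlap, as did 15% of all genes. With the 2 groups alone and the replicate number as a block, Egr1 was called too (adjusted p = 0.0480), where 4.88% of all genes were called as lower. The same block in the model of all groups did not call it (adjusted p = 0.154).

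On 2 kPa the same interval gave log2 fold changes of similar size. Atf3 had -1.18 (SE 0.37, adjusted p = 0.0675), Fos -1.04 (SE 0.34, adjusted p = 0.0772), Egr1 -0.66 (SE 0.27, adjusted p = 0.163) and Jun -0.20 (SE 0.20, adjusted p = 0.624). By the edgeR quasi-likelihood test 0 of the 4 were called. An unadjusted p below 0.05 was found for 3 of them and for 22.3% of all genes. DESeq2 made 2 calls, Fos (adjusted p = 0.0326) and Atf3 (adjusted p = 0.0265). Of all genes, 5.31% were called as lower by DESeq2 and 4.3% by edgeR. The libraries of Fos and Atf3 did not overlap between 3w2 and 1w2, as for 14.2% of all genes in that direction. The median log2 fold change of the 4 genes was -0.85 on 2 kPa and -0.68 on 100 kPa. The median of all genes, which the TMM scaling keeps near 0, was 0.00 on both surfaces.

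Over 4 weeks from the first week, a comparison added after the values were seen, both AP-1 family members with low counts fell on 100 kPa. Fos fell by 2.21 on the log2 scale (SE 0.42) and was 4.61-fold lower in 5w100 than in 1w100 (adjusted p = 0.00284). Atf3 fell by 2.16 (SE 0.45), a level 4.46-fold lower (adjusted p = 0.00467). These were 2 of 4 genes called, and 8.34% of all genes were called as lower. Fos kept its call when any 1 of the 5 libraries was left out, with log2 fold changes from -2.86 without 5w100 replicate 1 to -1.76 without 5w100 replicate 2, and Atf3 lost it only without 5w100 replicate 1 (adjusted p = 0.0513). Jun had a log2 fold change of -0.56 (SE 0.23, adjusted p = 0.104) and Egr1 of -0.56 (SE 0.31, adjusted p = 0.233). All 4 genes had lower libraries in 5w100 than in 1w100 with no overlap, and 22.5% of all genes did.

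The comparison of 1 and 5 weeks on 2 kPa was also added after the values were seen. Atf3 was called as lower there, with a log2 fold change of -1.36 (SE 0.43, adjusted p = 0.0455), beside 8.37% of all genes. Each of the 5 libraries decided that call, since leaving out any 1 gave an adjusted p between 0.0590 and 0.277. Fos had a log2 fold change of -0.83 (SE 0.38, adjusted p = 0.162), Egr1 of -0.30 (SE 0.31, adjusted p = 0.562) and Jun of -0.21 (SE 0.22, adjusted p = 0.588). From 3 to 5 weeks, edgeR called 0 of the 4 genes on either surface, and DESeq2 called 0 on 2 kPa. On 100 kPa DESeq2 did not call Jun or Egr1. It gave no adjusted p there for Atf3 or for Fos (DESeq2 unadjusted p = 0.00169), so these 2 were not judged by it. An unadjusted p below 0.05 was found only for Fos on 100 kPa, and for 6.33% of all genes on 100 kPa and 9.37% on 2 kPa. Fos had a log2 fold change of -1.36 in 5w100 against 3w100 (SE 0.42, unadjusted p = 0.00533, adjusted p = 0.702), which ran from -2.01 to -0.91 with 1 library left out, and 0% of all genes were called in this interval on either surface.

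**Figure D2:**
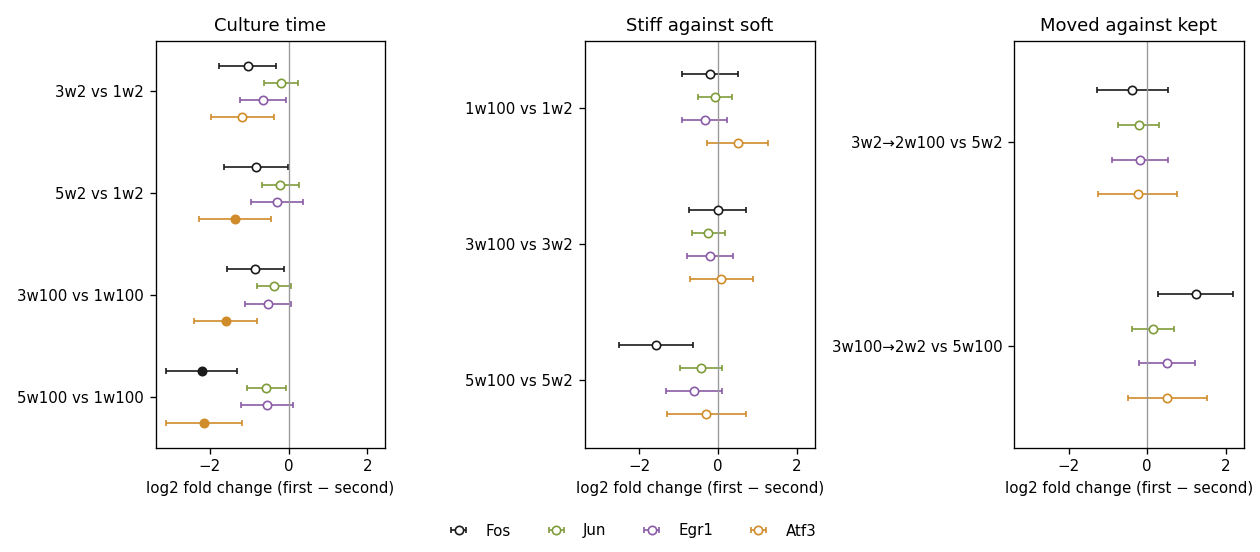
Log2 fold change (x axis, first-named minus second-named group) with its 95% confidence interval for each gene and comparison (y axis). Filled points have an adjusted p below 0.05: Atf3 in 3w100 vs 1w100, 5w2 vs 1w2 and 5w100 vs 1w100, and Fos in 5w100 vs 1w100. The comparisons 5w2 vs 1w2 and 5w100 vs 1w100 were added after the values were seen.

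The second comparison set the stiff against the soft surface at one time. At 1 week, 0 of the 4 genes were called by edgeR or DESeq2, and 0 had an unadjusted p below 0.05, against 0.385% of all genes. Atf3 was the one gene whose libraries did not overlap, higher on 100 kPa by 0.50 on the log2 scale (SE 0.36, adjusted p = 1), as for 1.86% of all genes. Egr1 had a log2 fold change of -0.34 (SE 0.27, adjusted p = 1), Fos of -0.20 (SE 0.33) and Jun of -0.07 (SE 0.20). Same-numbered 1-week libraries deviated together, and in a fit of those 2 groups with the replicate number as a block Egr1 was called as lower (adjusted p = 0.0475), beside 0.106% of all genes. The same block in the model of all groups did not call it (adjusted p = 1), and the fit without a block called 0% of all genes.

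At 3 weeks soft and stiff libraries overlapped for all 4 genes. The log2 fold changes were -0.24 for Jun (95% confidence interval -0.67 to 0.19), -0.20 for Egr1 (-0.79 to 0.38), 0.09 for Atf3 (-0.72 to 0.90) and -0.01 for Fos (-0.74 to 0.72). Again 0 were called by edgeR or DESeq2, as were 0% of all genes by edgeR, and 0 had an unadjusted p below 0.05, against 6.15% of all genes. Differences inside these intervals are not excluded by the 3 libraries a group.

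At 5 weeks all 4 log2 fold changes were negative. Fos was 2.98-fold lower in 5w100 than in 5w2, a log2 fold change of -1.57 (SE 0.44, unadjusted p = 0.00298, adjusted p = 0.102). Egr1 had -0.60 (SE 0.33, adjusted p = 0.419), Jun -0.43 (SE 0.25, adjusted p = 0.436) and Atf3 -0.29 (SE 0.47, adjusted p = 0.812). Fos, Jun and Egr1 had lower libraries in 5w100 with no overlap, as did 21.6% of all genes. The edgeR quasi-likelihood test called 0 of the 4 and 0.264% of all genes, and 1 of the 4 and 15.4% of all genes had an unadjusted p below 0.05. Fos was called by DESeq2 (adjusted p = 0.0264), beside 0.928% of all genes called as lower, and not by DESeq2 on these 2 groups alone (adjusted p = 0.374). With 1 library left out, its edgeR log2 fold change ran from -2.23 without 5w100 replicate 1 to -1.11 without 5w2 replicate 2, and its adjusted p from 0.0536 to 0.722.

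The change of the stiffness effect between times was tested directly and passed for 0 of the 4 genes by edgeR or DESeq2. For Fos the effect was lower at 5 weeks than at 1 week by a log2 of -1.37 (SE 0.55, unadjusted p = 0.0253, adjusted p = 0.627), and than at 3 weeks by -1.57 (SE 0.56, unadjusted p = 0.0135, adjusted p = 1). Of all genes, 0% were called in each of these comparisons. Whether the Fos difference at 5 weeks exceeds that of earlier weeks is therefore not shown.

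The third comparison set moved cells against cells kept on their first surface. Cells moved from 100 to 2 kPa had higher levels of all 4 genes than 5w100, with no overlap of libraries. Of all genes, 8.42% were higher without overlap. The nearest libraries of the 2 groups were almost level for Jun, both at 43.8 CPM, and for Atf3, at 2.39 and 2.35 CPM. For Fos the log2 fold change was 1.24 (SE 0.45, unadjusted p = 0.0145, adjusted p = 1), a level 2.35-fold higher. It ran from 0.78 without 5w100 replicate 2 to 1.89 without 5w100 replicate 1. Egr1 had 0.51 (SE 0.33), Atf3 0.51 (SE 0.47) and Jun 0.14 (SE 0.25), each with an adjusted p of 1. The edgeR quasi-likelihood test and DESeq2 called 0 of the 4, edgeR called 0% of all genes, and 1 of the 4 and 0.62% of all genes had an unadjusted p below 0.05. The 2 libraries of 5w100 are the base of this comparison and of the 5-week comparison with 5w2, so both share the low Fos levels of those libraries.

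Cells moved from 2 to 100 kPa had lower mean levels than 5w2. The log2 fold changes were -0.38 for Fos (SE 0.42), -0.25 for Atf3 (SE 0.47), -0.22 for Jun (SE 0.25) and -0.19 for Egr1 (SE 0.33), each with an adjusted p of 1. Only Jun had no overlap between groups, as for 8.16% of all genes in that direction. By edgeR and DESeq2 0 of the 4 were called, with 0% of all genes called by edgeR, and 0 of the 4 had an unadjusted p below 0.05, against 0.371% of all genes. Against 5w100, on the same surface at harvest, Fos in 3w2→2w100 was higher by a log2 of 1.19 (SE 0.45, unadjusted p = 0.0178, adjusted p = 0.243) and by 0.74 to 1.85 with 1 library left out, and 0.00713% of all genes were called as higher.

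Averaged over the 4 groups that ended at 5 weeks, Fos was lower after stiff than after soft priming by a log2 of -0.77 (SE 0.31, adjusted p = 0.127), where 9.75% of all genes were called. It was lower on the stiff than on the soft surface at harvest by -0.81 (SE 0.31, unadjusted p = 0.0189, adjusted p = 1), where 0% of all genes were called. For the surface at harvest, the log2 fold changes of Atf3, Egr1 and Jun were -0.38, -0.35 and -0.18 (SE 0.33, 0.24 and 0.17). Both averages of Fos include 5w100, its lowest group. Between 3w100→2w2 and 5w2, both on the soft surface at harvest, Fos libraries overlapped, with a log2 fold change of -0.34 (SE 0.42, adjusted p = 0.756). With 1 library left out, the priming difference of Fos ran from -1.09, without 5w100 replicate 1, to -0.53. It was called in 0 of 8 alternative fits that kept all libraries of these groups.

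Libraries of the same time, priming surface and replicate number were also set side by side, a description added after the values were seen, since nothing states that a number marks a shared rat. At 5 weeks Fos, Jun and Egr1 were lower on the stiff surface at harvest in 4 of 4 pairs, as were 7.12% of all genes. Atf3 was lower in 3 of 4, as were 32.6% of genes in at least 3. The log2 difference in these pairs, stiff minus soft, ran from -1.38 to -0.34 for Fos, from -0.56 to -0.17 for Egr1, from -0.30 to -0.14 for Jun and from -0.93 to 0.36 for Atf3. Both pairs primed on 100 kPa had larger differences of Fos and Egr1 than both pairs primed on 2 kPa.

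Over all 10 pairs of the study Jun and Egr1 were lower on the stiff surface in 9, as were 2.53% of all genes in at least 9. Fos was lower in 8, as were 9.59% of genes in at least 8, and Atf3 was lower in 5. The exception was replicate 3 at 1 week for Jun and replicate 1 at 3 weeks for Egr1. The mean log2 difference over the 10 pairs was -0.37 ± 0.52 (SD) for Fos, -0.28 ± 0.30 for Egr1, -0.16 ± 0.15 for Jun and 0.03 ± 0.63 for Atf3. With the pairs as blocks, edgeR's quasi-likelihood test called 0% of all genes over the 10 pairs and 0.145% over the 4 pairs at 5 weeks. Egr1 was among the latter (adjusted p = 0.0404), and its call was lost without either pair primed on 100 kPa (adjusted p = 0.316 and 0.564).

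**Figure D3:**
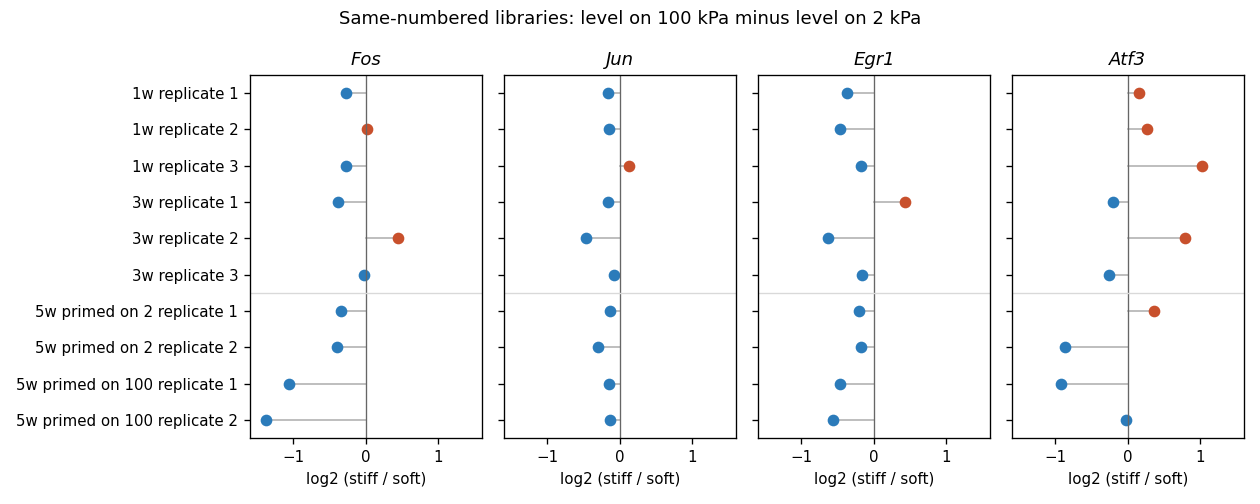
Log2 difference between same-numbered libraries on 100 and 2 kPa (x axis, stiff minus soft) for each of the 10 pairs (y axis) and each gene, with blue points where the stiff library was lower and red points where it was higher. At 5 weeks, below the grey line, all 4 pairs are blue for Fos, Jun and Egr1, and 3 of 4 are blue for Atf3.

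Across the 20 libraries the 4 genes shared part of their variation. Pearson's r of log2 CPM was 0.72 between Fos and Atf3, 0.69 between Jun and Atf3, 0.56 between Jun and Egr1, 0.52 between Fos and Egr1, 0.51 between Fos and Jun and 0.43 between Egr1 and Atf3. These are descriptions over libraries that share groups and times. After the group means were removed, r was 0.61 between Jun and Atf3, 0.34 between Jun and Egr1 and 0.28 between Fos and Atf3. It was 0.09 between Fos and Egr1 and 0.02 between Egr1 and Atf3. Between Fos and Jun, the partners of the classical AP-1 dimer, it was -0.19. The gene most like Atf3 was ENSRNOG00000030253 (r = 0.931 over 20 libraries), and the gene most like Fos was ENSRNOG00000014997 (r = 0.873). For Jun and Egr1 the highest r was 0.862 and 0.859. An r above 0.8 was found with 426 genes for Atf3, 65 for Fos, 6 for Jun and 3 for Egr1.

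**Figure D4:**
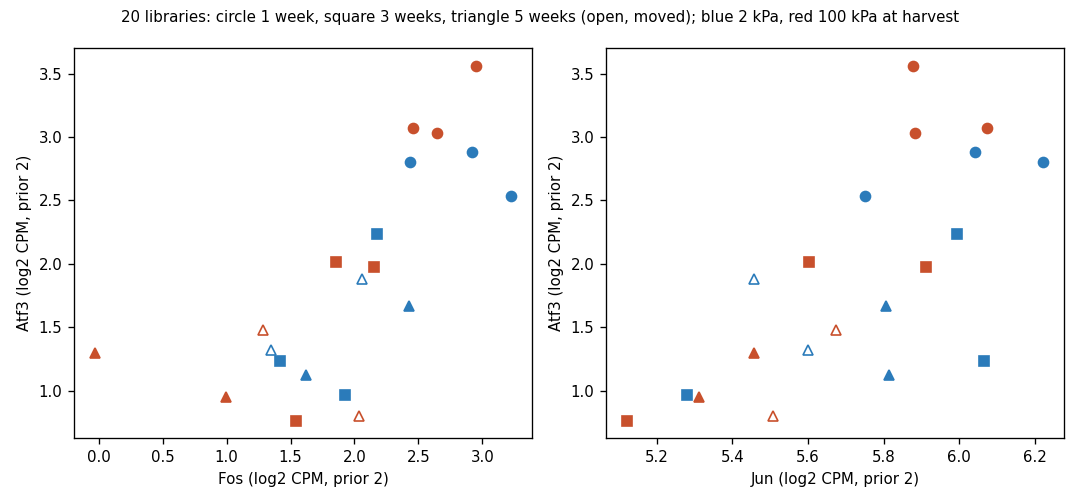
Atf3 against Fos (left) and against Jun (right) in log2 CPM with a prior count of 2, 1 point per library, with symbols for the time in culture and colours for the surface at harvest. All 6 libraries of 1 week (circles) lie above all other libraries for Atf3 and to their right for Fos, while for Jun they mix with later libraries.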

How the data were processed

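RNA-seq of 20 libraries in 8 groups was analysed, with passage, surface and replicate numbers from the labels. Library titles give a passage number, read here as weeks because the study passaged cells each week. Time in culture and passage number therefore cannot be told apart. The file that the authors deposited holds raw counts for each Ensembl identifier. Per the labels and the study's methods, reads were trimmed with Trim Galore, checked with FastQC, mapped to mRatBN7.2 (rn7) with HISAT2 and counted with featureCounts. Overlapping genes are uncertain, because tool versions and strand setting were not given in any source used. The edgeR package (4.0.16, in R 4.3.3) was used with filterByExpr (minimum count 10, total 15), TMM scaling and a quasi-likelihood fit of 1 model with 8 group means and no block. Log2 CPM used a prior count of 2. The call threshold was 0.05 on p adjusted by Benjamini-Hochberg over 14034 genes. The script was tested on simulated data. Library totals were 16127907 to 24139128, with a median of 18716923.

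Alternatives were DESeq2 1.42.0, fits on only the groups compared, RLE factors, no filter, a mean of at least 10 counts, a replicate block and leaving out each library. The named genes were the listed members, and for each the 3 genes of highest r, of which 2 identifiers are given. Members and lists were chosen with earlier results of these data known. Lists of other pathway genes and cell type markers were not analysed here, because symbols were not paired with the identifiers.

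For pairing, deviations from group means were correlated over genes between same-numbered libraries. The correlation was 0.626, 0.650 and 0.777 for 1w100 with 1w2, and 0.128, 0.349 and 0.114 for 3w100 with 1w100, all over 0.1. What a number marks is not stated in the labels, and this pairing rests on the data.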

Additional observations from a re-analysis of the deposited data

How the results depend on the processing

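The limits are few libraries and few counts of Fos and Atf3. With 2 libraries in each group that ended at 5 weeks, 1 library can decide a call, and leaving it out assumes that the remaining library varies like the other groups. In the test of any difference among groups, Fos and Atf3 were called in all 20 fits that left out 1 library and in all 5 other alternatives, Jun in none of these, and Egr1 only once, without 1 library (adjusted p = 0.0389). In the comparison added after the values were seen, Fos was called in 5w100 vs 1w100 under all 8 alternatives, as was Atf3. Jun was called there in 2 of the 8. These were DESeq2 on only the 2 groups (adjusted p = 0.00558, beside 7.18% of all genes called as lower) and edgeR on them with a replicate block (adjusted p = 0.0479, beside 4.33%). For the other alternatives in this paragraph, the share of all genes called is not given here.

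Of 4 genes, edgeR with a replicate block on the compared groups alone called 1 in 1w100 vs 1w2, 1 in 3w2 vs 1w2, 2 in 3w100 vs 1w100, 1 in 3w100→2w2 vs 5w100 and 0 in 5w2 vs 1w2. The replicate block in the model of all groups called 1 in 5w100 vs 5w2 and 2 in 3w2 vs 1w2. DESeq2 called 1 in 5w100 vs 5w2 and 2 in 3w2 vs 1w2. On only the groups compared, DESeq2 called 2 in 3w2 vs 1w2 and 3 in 3w100 vs 1w100. For those fits of DESeq2, and for the block fits of 3w2 vs 1w2, the share of all genes called is not given here. Their counts therefore cannot be set against all genes. No filter gave 0 in 5w2 vs 1w2. With 1 library left out the count was 0 to 1 in 3w2 vs 1w2, 0 to 1 in 3w100 vs 1w100, 0 to 1 for the priming surface, 0 in 5w2 vs 1w2 and 1 to 2 in 5w100 vs 1w100. For the fits with no filter or with 1 library left out, the share of all genes called is likewise not given here. The cause of the changes in count was not tested.

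Numbers were not shown to pair 3w100 with 3w2 (lowest correlation 0.0840) or 3w2 with 1w2 (0.0456). The groups that ended at 5 weeks share only 2 numbers with each other and with the 3-week groups, too few to judge pairing. Between 3 and 5 weeks on one surface the correlations ran from 0.391 to 0.448. Among the groups that ended at 5 weeks they ran from 0.168 to 0.802. The highest were 0.760 for 3w2→2w100 with 5w2 and 0.802 for 3w100→2w2 with 5w100. For 5w100 with 5w2 the correlation was only 0.178. There the edgeR replicate block in the model of all groups gave Fos an adjusted p of 0.0480 (0.955% of all genes called as lower). In 3w100→2w2 vs 5w100, the edgeR block with the 2 groups alone gave Egr1 an adjusted p of 0.0120 (0.039% called as higher). With the 4 pairs at 5 weeks as blocks, added after the values were seen, edgeR called 1 of 4, Egr1 (log2 difference -0.34, SE 0.07, adjusted p = 0.0404), beside 0.145% of all genes. That count was 0 with a mean of at least 10 counts or with no replicate block, 2 with no filter, and 0 to 2 with 1 pair left out. The share of all genes called is not given here for those alternatives. With all 10 pairs as blocks 0 were called, with an edgeR adjusted p of 0.322 for Jun, 0.326 for Egr1 and 0.359 for Fos.

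Directions that turned belong to differences that were not called. With 1 library left out, the log2 fold change in 1w100 vs 1w2 ran from -0.39 to 0.00327 for Fos and from -0.18 to 0.0428 for Jun. In 3w100 vs 3w2 it ran from -0.19 to 0.18 for Fos, from -0.44 to 0.21 for Egr1 and from -0.15 to 0.60 for Atf3, and with the replicate block it was 0.00326 for Fos. It ran from -0.55 to 0.0135 for Atf3 in 5w100 vs 5w2 and from -0.34 to 0.0129 for Jun in 3w2 vs 1w2. In 3w2→2w100 vs 5w2 it ran from -0.82 to 0.0853 for Fos, from -0.57 to 0.17 for Egr1 and from -0.65 to 0.0671 for Atf3, and over 10 pairs from -0.0528 to 0.18 for Atf3.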
